A study of Mus musculus with 3 samples.

Results

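The transcripts of autophagy and of the lysosome were examined in mouse T cells through 50 genes: 34 of the autophagy machinery, 3 MiT/TFE transcription factors, 7 cathepsins and 6 other lysosomal genes. The genes were listed by name, and all 50 were found among the 50600 genes counted. The cells were primary T cells of C57BL/6NJ mice, in a single group of 3 libraries that carry the biological replicate numbers 2, 3 and 4. A protocol for CD4+ T cell differentiation is cited in the labels, which give no treatment, age or sex. The headers of the count tables carry the words Th0 and activated with 0 h. The libraries share 1 donor identifier and the labels name no animals. P-values therefore describe only how these libraries differ, whether between animals or for technical reasons.

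Gene totals were between 28340521 and 59698913 read pairs per library. Every pair of libraries differed by more than sampling noise (chi-square divided by its degrees of freedom was 9.1 to 17.2), so none was merged. Xist, expressed from the inactive X chromosome of females, was at 151, 0.221 and 0.399 TPM in replicates 2, 3 and 4, and the Y-linked gene Ddx3y at 0.248, 80.0 and 72.3 TPM. Replicate 2 thus had the pattern of female cells and replicates 3 and 4 that of male cells, so replicate 2 came from another animal than they did. Whether replicates 3 and 4 share an animal is not given, and sex and replicate 2 cannot be told apart. TPM are counts corrected for the length of the gene and for the size of the library. All 10 T cell markers reached 1 TPM in each library. Cd4 was at 1018, 1067 and 1048 TPM against 0.334, 0.578 and 0.690 TPM for Cd8a. The other CD8 marker, Cd8b1, was at 36.5, 33.9 and 30.5 TPM. Levels with ± are means and SD over the 3 libraries (n = 3). Intervals and floors reflect counting error alone. In bulk RNA, fewer cells that express a gene and less RNA per cell cannot be told apart.

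Autophagy encloses cytoplasm in a membrane that grows around it and then fuses with the lysosome, whose hydrolases degrade the contents. A kinase complex starts the process, a lipid kinase complex marks the membrane, and conjugation enzymes attach ATG8 proteins to it, which bind the receptors that bring cargo. The factors TFEB, TFE3 and MITF switch on many lysosomal genes when the nutrient-sensing kinase mTORC1 is inactive. In T cells, autophagy is known for clearing mitochondria during maturation and for the survival of naive and memory cells.

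Nearly the whole set was expressed. The threshold of 1 TPM in each library was passed by 48 of the 50 genes, where 46.1% of all protein-coding genes and 23.4% of all genes passed. The exceptions were Wipi1 and Optn. The genes were chosen with earlier results of these data known, so these shares stand side by side without a test. By mean level, 9 genes were at 100 TPM or more, 32 between 10 and 100 TPM and 7 between 1 and 10 TPM. These are 18.0%, 64.0% and 14.0% of the 50, beside 8.42%, 27.9% and 10.7% of all protein-coding genes. The median over the 50 genes was 39.8 ± 1.65 TPM (SD, n = 3), beside 33.4 TPM for the median of the 10030 protein-coding genes detected, and 28 of the 50 lay above that value. The genes were thus spread around the level of a typical expressed gene, from 0.0968 TPM for Wipi1 to 815 TPM for Psap.

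**Figure D1:**
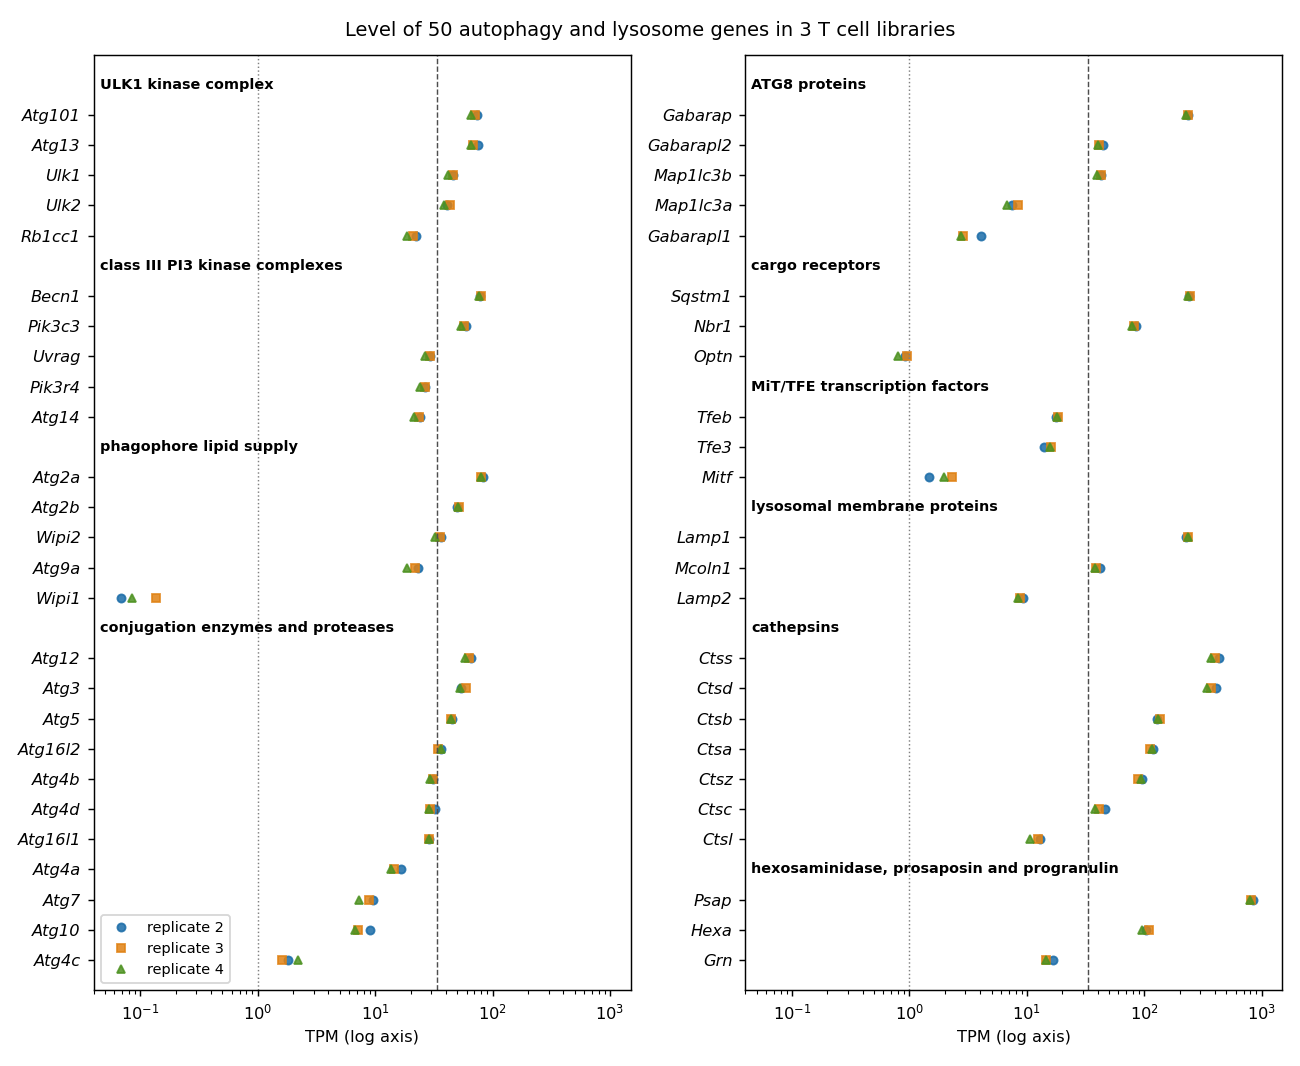
Level of each of the 50 genes in TPM on a log axis, with 1 symbol for each of replicates 2, 3 and 4, grouped by role and ordered by mean within a role. The dotted line is at 1 TPM and the dashed line at 33.4 TPM, the median detected protein-coding gene. Wipi1 and Optn are left of the dotted line, and Psap, Ctss and Ctsd are farthest to the right.

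The ULK1 complex, which starts autophagy, was complete, with all 5 genes between 20.7 and 69.8 TPM. Atg101, which stabilises ATG13, was the highest at 73.1, 70.9 and 65.4 TPM in replicates 2, 3 and 4, and Atg13, the regulatory subunit, followed at 74.5, 67.6 and 65.8 TPM. Their ranges overlapped, and with the length of the longest coding transcript in place of all exons Atg13 was the higher, at 60.4 TPM against 50.2 TPM for Atg101. The kinase genes Ulk1, at 46.4, 45.8 and 42.0 TPM, and Ulk2, at 41.2, 43.2 and 38.3 TPM, were also near each other. Ulk1 exceeded Ulk2 within each library, with a difference of log2(TPM + 0.1) of 0.13 ± 0.04, and of 0.39 with the longest transcript length. Rb1cc1, which encodes the scaffold FIP200, was the lowest of the complex at 20.7 ± 1.72 TPM.

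The class III phosphatidylinositol 3-kinase complexes, which make the lipid that marks the growing membrane, were likewise all present. Becn1, the gene of the core subunit Beclin 1, reached 78.5, 78.9 and 77.0 TPM and was among the steadiest genes of the set. Pik3c3, the catalytic subunit VPS34, stood at 59.0, 56.7 and 53.8 TPM. The regulatory kinase-like subunit gene Pik3r4 was lower, at 26.4, 26.6 and 23.9 TPM. Atg14 directs the kinase to autophagy and Uvrag directs it to endosomes, and these subunits exclude each other. Atg14 was at 24.0, 23.6 and 21.3 TPM, and Uvrag at 29.4, 29.1 and 26.5 TPM. Atg14 was the lower in each library, with a log2 difference of -0.30 ± 0.01 and a length-corrected ratio of pooled counts of 0.813 (95% exact interval 0.780 to 0.846). With the longest transcript length the difference was -1.11.

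Among the genes that supply lipid to the membrane, a member of one paralogue pair was nearly silent. Wipi2, which binds the marker lipid and recruits ATG16L1, was at 36.3, 35.3 and 32.6 TPM. Its paralogue Wipi1 (ENSMUSG00000041895.15, mm10 chromosome 11, 109573331 to 109611967, minus strand) was at 0.0689, 0.136 and 0.0853 TPM, from 17 read pairs in all. The pooled ratio of Wipi2 to Wipi1 was 344, with a 95% exact interval from 215 to 591. Wipi2 was higher by 7.48 ± 0.26 on the log2 scale, and by 8.07 with the longest transcript length. The lipid transfer genes Atg2a, at 82.5, 78.9 and 79.4 TPM, and Atg2b, at 50.1, 51.4 and 50.2 TPM, were both well expressed, Atg2a by 0.67 ± 0.05 more on the log2 scale. Atg9a, the lipid scramblase gene, was at 21.3 ± 2.36 TPM. Another gene on the same strand covers 31.8% of the exon bases of Atg9a, where the counter by default assigns a read pair to neither gene, so its level may be understated.

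All 11 genes of the conjugation enzymes and their proteases were detected, but over a wide range. ATG12 is joined to ATG5, and the conjugate with ATG16L1 places ATG8 proteins on the membrane. By summed exon length, Atg12 was the highest at 65.7, 63.3 and 57.6 TPM, followed by Atg3, the E2-like enzyme for ATG8 proteins, at 53.8, 59.4 and 53.2 TPM. With the longest transcript length that order turned, with Atg16l1 at 63.3 TPM, Atg3 at 61.2 TPM and Atg12 at 44.8 TPM. Atg5 stood at 44.8 ± 0.603 TPM by summed exon length. The E1-like enzyme Atg7, on which both conjugations depend, was much lower at 8.61 ± 1.16 TPM, and Atg10, the E2-like enzyme for ATG12, was at 7.59 ± 1.21 TPM. Atg16l2 was at 36.5, 34.3 and 36.7 TPM, and Atg16l1 at 28.5, 28.8 and 28.6 TPM. Atg16l2 was thus the higher in each library by 0.32 ± 0.06 on the log2 scale. With the longest transcript length the difference turned to -0.91, so the order of this pair depended on the length used.

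The ATG4 proteases trim ATG8 proteins before conjugation and release them afterwards. Atg4b, which encodes the protease with the broadest activity, was at 31.3, 31.0 and 29.1 TPM, and Atg4d at 32.3, 29.1 and 28.8 TPM. These overlapped, and the pooled ratio was 1.02 (95% exact interval 0.989 to 1.05), whereas the log2 difference was 0.72 with the longest transcript length. Atg4a, on the X chromosome, followed at 16.7, 14.4 and 13.5 TPM, and Atg4c was the lowest at 1.81, 1.61 and 2.21 TPM. On the log2 scale Atg4b exceeded Atg4a by 1.04 ± 0.11 and Atg4c by 3.96 ± 0.27, and with the longest transcript length by 1.75 and 4.85.

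Among the ATG8 genes, Gabarap was far above the rest. Gabarap (ENSMUSG00000018567.14, chromosome 11, 69991143 to 69994951, plus strand) was at 237, 237 and 226 TPM and held 71.1 ± 0.519% of the summed TPM of the 5 genes. Gabarapl2, at 44.8, 41.3 and 40.7 TPM, and Map1lc3b, the gene of the widely used marker LC3B, at 42.9, 43.1 and 39.7 TPM, overlapped. Map1lc3a was at 7.46, 8.39 and 6.80 TPM and Gabarapl1 at 4.04, 2.86 and 2.74 TPM. Gabarap exceeded Map1lc3b by 2.48 ± 0.03 on the log2 scale, a pooled ratio of 5.55 (5.42 to 5.68). With the longest transcript length, Map1lc3b was at 86.1 TPM and no longer overlapped Gabarapl2, at 42.2 TPM. The log2 difference of Gabarap over Map1lc3b was then 1.41, so Gabarap stayed higher by less.

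Of the cargo receptors, which hold ubiquitin-tagged material to the membrane, Sqstm1 and Nbr1 were high and Optn was low. Sqstm1 (ENSMUSG00000015837.15, chromosome 11, 50199366 to 50210827, minus strand), the gene of p62, was at 241, 245 and 234 TPM, and Nbr1 at 85.1, 82.0 and 78.8 TPM. Sqstm1 exceeded Nbr1 by 1.55 ± 0.04 on the log2 scale. Optn, the optineurin gene, was at 0.911, 0.944 and 0.802 TPM from 128 read pairs in all, under 1 TPM in every library.

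Of the MiT/TFE transcription factors, Tfeb and Tfe3 were below the median detected gene by summed exon length and Mitf was low. Tfeb (ENSMUSG00000023990.18, chromosome 17, 47737030 to 47792419, plus strand) was at 17.6, 18.6 and 18.2 TPM. Tfe3, which lies on the X chromosome, was at 14.1, 16.0 and 15.9 TPM. Mitf, known best for its role in pigment cells, mast cells and osteoclasts, was at 1.46, 2.32 and 1.98 TPM. Tfeb exceeded Tfe3 in each library, by 0.24 ± 0.07 on the log2 scale (0.07 with the longest transcript length), although Tfe3 had more read pairs (5353 in all, against 3890 for Tfeb) over longer exons. Without correction for length the difference was -0.46. Both exceeded Mitf, Tfeb by 3.20 ± 0.28 and Tfe3 by 2.95 ± 0.23, or 4.12 and 4.05 with the longest transcript length.

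These factors bind an E-box, CACGTG, often as GTCACGTG, at lysosomal genes, so promoters were searched for those letters. RefSeq promoters on GRCm38.p6 from 250 bases before to 50 bases after a start were given for 43 of the 50 genes. The 8 letters GTCACGTG, or CACGTGAC on the other strand, were found in 7 of the 43 genes, which is 16.3%, beside 2.55% of the 27025 genes with a promoter. By promoter, 7 of 53 held them, beside 2.25% of 32851. The sets were not matched for level or base composition, and the difference between the shares was not tested. The E-box CACGTG, which lies within the 8 letters and reads the same on both strands, was found in 9 of 43, against 8.09% of all genes, the additional 2 being Atg5 and Ctsl. Each window that holds the 8 letters is shown with those letters in capitals and 20 bases on each side where the promoter reaches that far, since the 7 genes include 4 lysosomal genes whose levels follow.
Ctsd: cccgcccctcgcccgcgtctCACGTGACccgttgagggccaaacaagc
Ctsd, upstream: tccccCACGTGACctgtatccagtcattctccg
Ctsa: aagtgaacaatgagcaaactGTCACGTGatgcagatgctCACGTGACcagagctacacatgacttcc
Lamp1: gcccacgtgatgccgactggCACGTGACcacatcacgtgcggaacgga
Mcoln1: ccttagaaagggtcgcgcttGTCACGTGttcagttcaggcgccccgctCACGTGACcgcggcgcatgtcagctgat
Atg3: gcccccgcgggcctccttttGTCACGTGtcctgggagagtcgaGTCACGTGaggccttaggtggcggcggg
Atg7: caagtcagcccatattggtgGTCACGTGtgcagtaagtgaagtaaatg
Atg14: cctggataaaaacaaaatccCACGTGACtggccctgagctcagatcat

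Each window is written 5′ to 3′ on the strand of its gene. The site of Lamp1 (chr8:13159113-13159160, plus strand) begins 28 bases before the start, and its promoter holds 4 E-boxes in all. In Mcoln1 (chr8:3500426-3500501, plus strand) the sites begin 73 and 45 bases before the start. In Ctsa (chr2:164833739-164833805, plus strand) one begins 14 bases before the start and the other at transcript base 6. In Ctsd the sites begin 98 bases (chr7:142387898-142387945, minus strand) and 245 bases (chr7:142388045-142388077) before the start. The sites are 96 and 73 bases before the start in Atg3 (chr16:45158713-45158783, plus strand), 134 bases in Atg7 (chr6:114670942-114670989, plus strand) and 1 base in Atg14 (chr14:47568408-47568455, minus strand). A gene was counted if any of its starts had the letters, and a start need not be the first. Some of these sites lie inside the counted span of the gene. That of Atg7 is far inside, since its counted exons begin at base 114643097. The 7 genes with a site ranged from 8.61 TPM for Atg7 to 374 TPM for Ctsd. Neither the use of each start nor binding was measured.

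The lysosomal membrane genes differed widely. Lamp1 (ENSMUSG00000031447.7, chromosome 8, 13159161 to 13175338, plus strand), which encodes an abundant membrane glycoprotein, was at 227, 236 and 234 TPM. Lamp2, its X-linked relative with a role in fusion and in chaperone-mediated autophagy, was at 9.20, 8.77 and 8.48 TPM. Lamp1 exceeded Lamp2 by 4.70 ± 0.08 on the log2 scale, a pooled ratio of 26.2 (95% exact interval 25.3 to 27.2), and by 3.57 with the longest transcript length. Mcoln1, the lysosomal calcium channel gene, was at 41.7, 38.6 and 38.1 TPM. Its exons are much longer in sum than its longest transcript, and with that length it was at 104 TPM.

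All 7 cathepsins, the proteases of the lysosome, were detected, and Ctss and Ctsd led them. Ctss (ENSMUSG00000038642.10, chromosome 3, 95526786 to 95556403, plus strand), a cysteine protease known for processing the invariant chain in antigen-presenting cells, was at 432, 400 and 372 TPM. Ctsd (ENSMUSG00000007891.16, chromosome 7, 142375911 to 142388038, minus strand), the main aspartic protease of the lysosome, was at 410, 371 and 339 TPM. Their ranges overlapped, with means of 289 TPM for Ctss and 297 TPM for Ctsd by the longest transcript length, and together they held 66.3 ± 1.64% of the summed TPM of the cathepsins. Another gene on the same strand covers 34.4% of the exon bases of Ctsd, so the level of Ctsd may be understated in the same way.

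The next cathepsins were each near 100 TPM. Ctsb, a cysteine protease, was at 128, 135 and 131 TPM. Ctsa, a carboxypeptidase that protects other lysosomal enzymes, was at 117, 112 and 117 TPM, and Ctsz, another carboxypeptidase, at 94.7, 88.8 and 93.5 TPM. These 3 did not overlap with each other, but with the longest transcript length Ctsb was at 94.3 ± 2.60 TPM and below Ctsa at 107 ± 2.96 TPM. Ctsc, which activates granzymes in cytotoxic cells, was at 42.0 ± 4.25 TPM. Ctsl, known for processing the invariant chain in thymic epithelium, was the lowest at 12.8, 12.4 and 10.6 TPM. Ctss exceeded Ctsl by 5.06 ± 0.06 on the log2 scale, a pooled ratio of 33.3 (31.2 to 35.6), and Ctsd exceeded Ctsb by 1.51 ± 0.16.

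Markers of antigen-presenting cells were set beside Ctss, since those cells express it strongly. Of 9 macrophage and monocyte markers, 2 reached 1 TPM in each library. The summed level of the 9 was between 15.95 and 17.17 TPM, most of it from Cd68 at 13.3 ± 0.314 TPM. Fcgr1 and Cd14 had 0 read pairs. Itgam was at 0.892, 1.11 and 1.07 TPM in replicates 2, 3 and 4. Another gene on the same strand covers 68.7% of its exon bases, so its level may be understated. The dendritic cell and MHC class II list had 4 of 9, with sums of 194, 237 and 156 TPM in replicates 2, 3 and 4. These 4 were H2-Aa, H2-Ab1, H2-Eb1 and Cd74, the gene of the invariant chain. The B cell list had 9 of 10, with sums of 1344, 1322 and 1348 TPM, nearly all from Ighm. Cd74 was at 120, 138 and 92.8 TPM and Cd79a at 15.1, 16.9 and 12.3 TPM. Of the B cell markers, 8 of 10 were highest in replicate 3 and 8 lowest in replicate 4, with Ighm the reverse. Of the dendritic cell and MHC class II list, 5 of 9 were highest in replicate 3 and 4 in replicate 4. In that list 3, 2 and 4 were lowest in replicates 2, 3 and 4. Of the 7 macrophage markers with a read pair, 5 were highest in replicate 3 and 2 in replicate 4, and 6 were lowest in replicate 2. A tie at 0 was counted for replicate 2, as for Batf3, Mertk and C1qa. Ctss was highest in replicate 2 and lowest in replicate 4. These orders are in TPM, where 46.6% of all genes tested for variation were lowest in replicate 4. The part of other cells in the level of Ctss was not tested.

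Psap was the highest of all 50 genes. Psap (ENSMUSG00000004207.14, chromosome 10, 60277627 to 60302597, plus strand), which encodes the precursor of the saposins that help degrade sphingolipids, was at 836, 809 and 802 TPM, above 98.8% of the detected protein-coding genes. It held 20.2 ± 0.374% of the summed TPM of the 50 genes, and with Ctss and Ctsd 39.4 ± 0.703%. Hexa, the α subunit of β-hexosaminidase, was at 104, 109 and 95.1 TPM. Grn, the progranulin gene, was lower at 15.3 ± 1.18 TPM.

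By class, the cathepsins had a median of 117, 112 and 117 TPM in replicates 2, 3 and 4, the other lysosomal genes 72.9, 73.7 and 66.6 TPM, the autophagy machinery 36.4, 34.8 and 34.6 TPM and the MiT/TFE factors 14.1, 16.0 and 15.9 TPM. The order of the classes was thus the same in every library. The machinery was close to the 33.4 TPM of the median detected protein-coding gene, and the cathepsins were above its upper quartile of 76.6 TPM. The ranges of the genes overlapped nonetheless, since Sqstm1 and Gabarap of the machinery were above 5 of the 7 cathepsins and Ctsl was below most of the machinery. These medians describe the genes listed and were not tested.

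The differences between related genes could not be called significant in this design. Over the 23 pairs compared, 22 had the same sign in 3 of 3 libraries, each with p = 0.25 when signs were flipped exhaustively (exact permutation test, two-sided) and an adjusted p of 0.261 by the Benjamini-Hochberg method. That p is the smallest that 3 libraries allow. The exception was Atg4b over Atg4d, with 2 of 3 libraries, an exact p of 0.75 and a log2 difference of 0.02 ± 0.07. The largest differences were Wipi2 over Wipi1 at 7.48 ± 0.26, Gabarap over Gabarapl1 at 6.16 ± 0.28 and Ctss over Ctsl at 5.06 ± 0.06, all far larger than the spread between libraries.

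**Figure D2:**
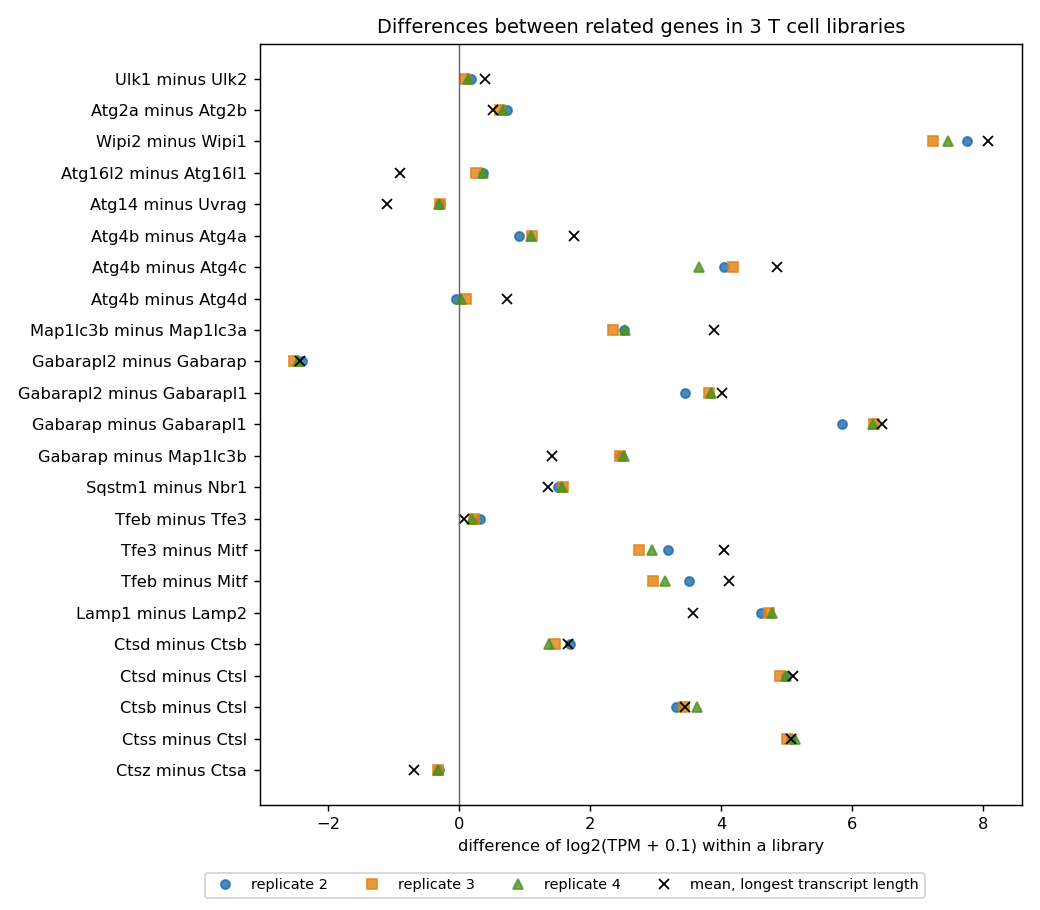
Difference of log2(TPM + 0.1) between related genes within each of replicates 2, 3 and 4, with a cross for the mean when the longest transcript length is used. Most pairs lie on one side of 0 in every library, and the cross of Atg16l2 minus Atg16l1 lies on the other side, at -0.91.

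Variation among the libraries was tested for 49 of the 50 genes. The expected spread (trended dispersion) was estimated from these same 3 libraries. A gene therefore passed only by varying more than genes of similar count, and spread shared by most genes is not called. Wipi1, with a mean under 10 counts, was not tested at the main threshold, and the coefficient of variation of its TPM was 36.3%. By edgeR's goodness of fit with Benjamini-Hochberg adjustment over 13498 genes, 0 of the 49 others passed an adjusted p of 0.05, where 0.533% of all genes tested did, a share so small that 0 of 49 is near it. At an unadjusted p under 0.05 it was also 0 of 49, where 4.10% of all genes passed. With a common dispersion 0 of 49 passed after adjustment, where 2.31% of all genes did, and 1, Mitf, before it, where 10.1% did. Without replicate 4 Mitf was again the 1 gene at an unadjusted p under 0.05, where 3.60% of all genes were. The coefficient of variation of scaled counts had a median of 4.36% over the 49 genes and 6.85% over all genes tested, sets that were not matched for level. The coefficient was under 10% for 44 of the 49, which is 89.8%, beside 63.5% of all genes tested. It was also under 10% for 87.5% of 104 further genes of the pathway. It was smallest for Psap at 0.958%, Becn1 at 1.03% and Atg5 at 1.08%, and largest for the low genes Mitf at 23.2%, Gabarapl1 at 20.6% and Atg4c at 17.7%. Mitf had the smallest unadjusted p, 0.122 (edgeR, adjusted p = 1). These 3 genes had 456, 247 and 229 read pairs in all, among the lowest of the set.

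**Figure D3:**
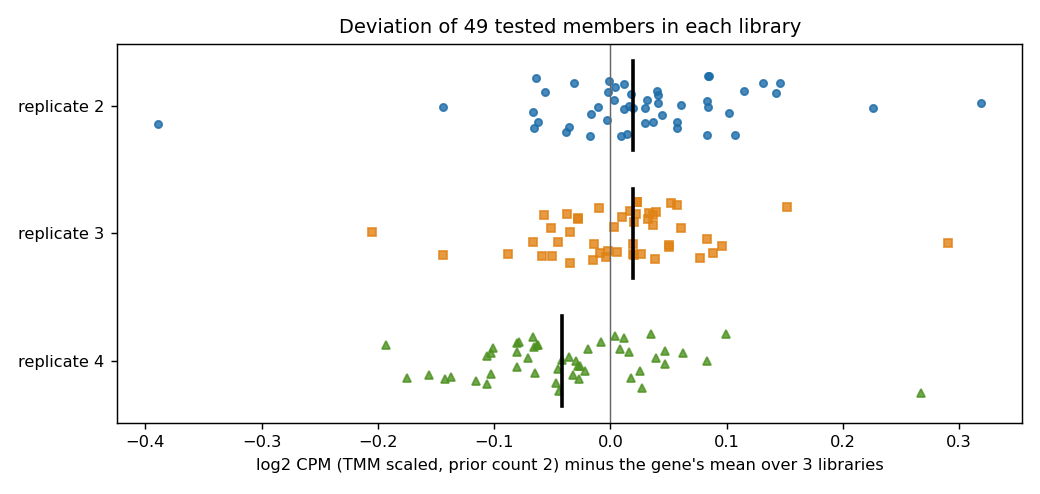
Deviation of each of the 49 tested genes from its mean over the libraries, in log2 CPM with TMM scaling and a prior count of 2, for replicates 2, 3 and 4, with the median as a bar. Medians are at 0.02, 0.02 and -0.04, and the points farthest out are Mitf in replicate 2 at -0.39 and Gabarapl1 in replicate 2 at 0.32.

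Of the 49 genes, 28 were lowest in replicate 4 after scaling, which is 57.1%, where 35.9% of all genes tested were, and the difference between these shares was not tested. In replicate 4, 15 of the 49 were above their mean. They were Tfeb, Tfe3, Mitf, Lamp1, Psap, Ctsa, Ctsb, Ctsz, Becn1, Atg2a, Atg2b, Atg4c, Atg5, Atg16l1 and Atg16l2. The cathepsins Ctsc, Ctsd, Ctsl and Ctss were below theirs. Deviations above 0 in replicate 4 ran from 0.004 for Psap to 0.267 for Atg4c, so this split goes by sign alone. The share of all genes above their mean in replicate 4 is not given here. The median log2 difference of replicate 4 over replicate 2 was -0.08 for the 49 genes and 0.00 for all genes tested. In TPM, 37 of the 49 were lowest in replicate 4, beside 46.6% of all genes tested. Replicate 4 had the fewest read pairs, and the part of depth in this was not tested. Atg7 had the lowest deviation of replicate 4, -0.19, with 9.61, 8.89 and 7.34 TPM in replicates 2, 3 and 4.

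A further 105 genes of the pathway, listed by function, were read in the same way. The 1 TPM threshold was passed in each library by 100 of them, and their median was 52.3 ± 0.561 TPM (SD, n = 3). Of the 104 tested for variation among libraries, 0 passed an adjusted p of 0.05 in edgeR's test and 1, Bcl2, had an unadjusted p under 0.05, with an adjusted p of 0.921 in edgeR. Bcl2 encodes an inhibitor of cell death that also binds Beclin 1, and it was at 121, 98.1 and 86.0 TPM. It led the list of other autophagy factors, where all 15 were detected, followed by the ULK1 cofactor gene Ambra1 at 87.8 ± 1.18 TPM and the mitophagy receptor gene Bnip3l at 86.8 ± 5.63 TPM.

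All 13 genes of fusion with the lysosome and all 17 of the vacuolar ATPase, the proton pump that acidifies it, were detected. The fusion list was led by Tecpr1, a tethering factor gene, at 295 ± 10.9 TPM, by the small GTPase gene Rab7 at 209 ± 8.30 TPM and by the tethering subunit gene Vps16 at 175 ± 4.00 TPM. In the pump, the accessory subunit gene Atp6ap1 was at 177 ± 4.06 TPM, Atp6v1f at 143 ± 9.51 TPM and Atp6v0b at 116 ± 2.67 TPM. The a1 subunit gene Atp6v0a1 was the lowest at 1.94 ± 0.312 TPM, whereas its relatives Atp6v0a2 and Tcirg1 were at 109.8 ± 1.83 TPM and 75.1 ± 2.17 TPM.

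Of 17 genes of mTORC1, AMPK and nutrient sensing at the lysosome, 16 were detected, led by the Ragulator genes Lamtor2 at 107 ± 8.34 TPM and Lamtor5 at 81.9 ± 4.45 TPM and by Flcn, the folliculin gene, at 84.0 ± 6.63 TPM. The exception was Fnip2, a folliculin partner, at 0.545, 0.460 and 0.330 TPM, while its relative Fnip1 was at 20.3, 20.9 and 20.6 TPM. Among the Rag GTPases, which bring mTORC1 to the lysosome, Rraga stood at 70.7 ± 6.10 TPM and Rragc at 60.8 ± 2.38 TPM, with Rragd at 1.88 ± 0.218 TPM.

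Among 27 further hydrolases and activators 25 were detected. Ctsw, a cathepsin known from cytotoxic lymphocytes, led at 216 ± 9.10 TPM, beside the CD8 markers Cd8a, under 1 TPM, and Cd8b1, at 33.6 ± 3.00 TPM. The part of CD8 T cells in its level was not tested. It was followed by the lipase gene Lipa at 178 ± 6.34 TPM and the mannosidase gene Man2b1 at 143 ± 2.34 TPM. Ctsf and Ctsh were under 1 TPM in at least 1 library, with Ctsf at 1.58, 0.973 and 0.762 TPM and Ctsh at 0.878, 1.00 and 0.613 TPM. Of 13 further membrane and transport genes 11 were detected, led by Laptm5, a lysosomal protein of blood cells, at 1416 ± 22.8 TPM, the cholesterol carrier gene Npc2 at 511 ± 6.79 TPM and Laptm4a at 153 ± 4.36 TPM. The tetraspanin gene Cd63, often used as a lysosome marker, had 4 read pairs in all, at 0, 0.0326 and 0.0681 TPM, where 3 read pairs over the libraries would be 0.0216 TPM. Sort1, a sorting receptor gene, was at 0.110, 0.103 and 0.0994 TPM. By the longest transcript length the leading genes changed in some lists, with Tax1bp1 at 139.6 TPM above Bcl2, Man2b1 at 216 TPM above Ctsw, Lamtor1 at 131 TPM above Flcn and Lamtor5, and M6pr at 168 TPM above Laptm4a. All 3 cathepsin inhibitor genes were detected, Cst3 at 84.0 ± 2.91 TPM, Cstb at 55.8 ± 6.58 TPM and Cst7 at 18.0 ± 3.12 TPM.

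**Figure D4:**
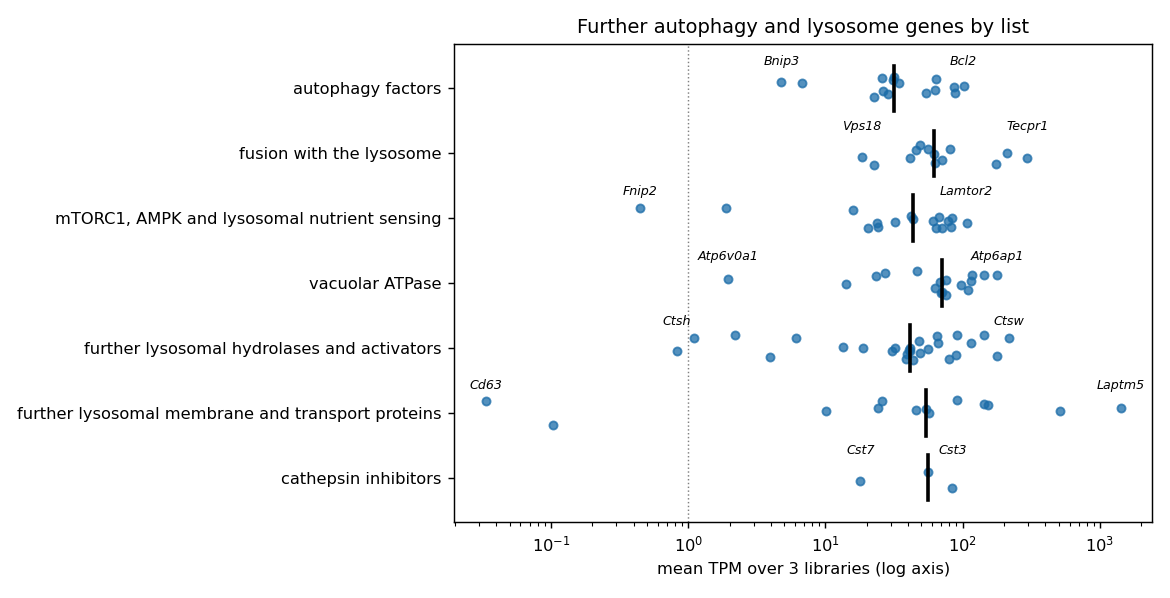
Mean TPM over 3 libraries on a log axis for the 105 further genes, 1 point per gene, by list, with the list median as a bar and the lowest and highest gene named. The dotted line is at 1 TPM, and Fnip2, Ctsh, Cd63 and Sort1 have means left of it.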

How the data were processed

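Total RNA-seq libraries of 3 T cell samples in 1 group were analysed. Per the file headers, the deposited values are raw counts of read pairs per gene, made by the authors with featureCounts 1.4.6-p4 on GENCODE M13 (mm10), for pairs with both ends aligned, on the reverse strand, summed over the exons of a gene. Per the file headers, the deposited tables also give summed exon lengths, used here for TPM; other lengths came from GENCODE M21. No option for multi-mapping pairs or for pairs over several genes appears in the headers, so near-identical copies and overlapping genes may be undercounted. For the aligner, settings were not given in the sources used here. Per the labels the assay is total RNA-seq, while the library protocol is for poly(A) RNA. The text lists of files were not used.

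Symbols were matched by Ensembl identifier without version (50376 of 50600 genes). Variation among libraries was assessed by edgeR 4.0.16 under R 4.3.3 (intercept-only model, TMM, trended dispersion, mean count of 10 or more, goodness of fit), a method checked on simulated data. Pair differences used log2(TPM + 0.1) and exact sign-flip tests. Ratios have exact binomial intervals at 95%, and the floor is 3 counts. Python 3.11.15, numpy 2.4.6, scipy 1.17.1 and pandas 2.3.3 were used.

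The genes, lists and pairs were chosen with earlier results of these data known. Values in every library are given for the 2 highest genes of each role, genes of a compared pair and genes under 1 TPM, and mean levels for the 3 highest genes of other lists. Atp6v0a1, Atp6v0a2, Tcirg1, Fnip1, Rraga, Rragc and Rragd were named after seeing their values. Alternatives included other thresholds, pseudocounts, scalings, dispersions, list summaries and each replicate left out, and, added after seeing the data, the length of the longest coding transcript (the deposited length where that is shorter).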

Additional observations from a re-analysis of the deposited data

How the results depend on the processing

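The number of genes detected was 48 at 1 TPM, 49 at 0.5 TPM and 45 at 5 TPM, and 48 with protein-coding genes alone in the total, with each replicate left out and with the longest transcript length. As the mean of log2(TPM + 0.1), class levels were 25.2 TPM for the machinery, 8.26 TPM for the MiT/TFE factors and 101 TPM for the cathepsins. With the longest transcript length, a choice made after seeing the data, class medians were 38.7 TPM for the machinery, 30.1 TPM for the MiT/TFE factors, 88.9 TPM for the other lysosomal genes and 94.3 TPM for the cathepsins. That length moved 6 of the 50 genes by over 1.5 times, all upwards: Mcoln1, Atg16l1, Map1lc3b, Tfe3, Lamp2 and Tfeb. Among the alternative values of the 23 pairs, 158 had the same sign and 3 reversed: Atg16l2 minus Atg16l1 to -0.91 with the longest transcript length, Tfeb minus Tfe3 to -0.46 without length correction, and Atg4b minus Atg4d, from a difference smaller than its spread, which was between -0.016 and 0.055 with a replicate left out, below 0 without replicate 3. The share of Gabarap among the ATG8 genes was 62.7% with the longest transcript length. Over all genes, 72 passed edgeR's test of variation beyond the dispersion of these libraries, 312 with a common dispersion and between 35 and 46 with a replicate left out. Of the 50 genes, 48 to 50 were tested in each of the 8 settings run, and 0 passed in any. No paired analysis was possible because the libraries form 1 group. Depth limits the values of Wipi1, Optn, Atg4c, Gabarapl1, Map1lc3a and Mitf most, with 17 to 456 read pairs in all. Beyond the lengths and samples used, the cause was not tested.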
